A study of Mus musculus with 4 samples.

Results

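The keratin-associated protein (Krtap) genes were examined by DNA methylation in keratinocytes of the hair matrix, taken from mice on postnatal day 4.5. All 56 protein-coding genes of the RefSeq table (GRCm38) whose symbol starts with Krtap were taken, of 21900 protein-coding genes in all. For each gene, the regions overlapping the gene body or the 5 kb on either side were read from the authors' deposited table of regions, which lists 484555 regions for the comparison of genotypes. This gave 145 distinct regions, since neighbouring genes share some of them. The 56 genes fall into clusters on chromosome 16 (24 genes), chromosome 11 (23), chromosome 7 (5) and chromosome 10 (3), with 1 gene on chromosome 1.

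The study sequenced bisulfite-converted DNA of the whole genome in 2 groups, with 2 libraries each. The cells had been sorted and were either native or fixed with formaldehyde, and which library was which is not given. The first group is labelled WT, and whether it carries Cre or unrecombined floxed alleles is not given in the labels. The second is labelled Tet2/Tet3 DKO, Krt14-Cre, a double knockout (DKO) of Tet2 and Tet3 in which Cre comes from the promoter of Krt14, a keratin of basal epithelial cells. The labels do not tell whether a group's 2 libraries stem from different animals, and they give no sex. Hair matrix keratinocytes are the dividing epithelial cells at the base of the follicle, and their labelled identity was not checked here, since no expression was measured.

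Keratin-associated proteins form the matrix in which the keratin filaments of the hair shaft are embedded and cross-linked. They are made by short genes that lie in clusters and are switched on in turn as matrix cells become cortex and cuticle cells of the shaft. By the composition of their proteins, families are known as high-sulfur (such as Krtap1, Krtap2, Krtap3 and Krtap11) or ultra-high-sulfur (such as Krtap4, Krtap5 and Krtap9). Others are known as high-glycine-tyrosine (such as Krtap6, Krtap8, Krtap19 and Krtap20). TET proteins convert 5-methylcytosine to 5-hydroxymethylcytosine, from which the mark can be lost. Bisulfite treatment does not separate these bases, and a level here is the sum of both.

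Every level below is a group mean for a region in percent, and every difference is DKO minus WT in percentage points. With group means alone, no difference has a replicate check and no p-value is given. Depth is unknown. A region's positions are single cytosines, and several regions of 2 positions were only 2 bases wide. The 2 strands of 1 CpG site can thus count as 2 positions, so positions are not numbers of CpG sites. The spread is the authors' own estimate for a region, which neighbouring regions can share. The table does not name its groups. WT was read as the first of them because the table's title names it first, and all directions rest on this reading. A region is called gained where its level was at least 20 points higher in the DKO.

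Methylation was higher by at least 20 points near 21 of the 56 Krtap genes, within the gene or 5 kb on either side. In comparison, 64.4% of all protein-coding genes held such a region within the same distance, against 37.5% of the Krtap genes. The Krtap windows are short, with a median of 10.8 kb against 27.1 kb for all protein-coding genes, and held a median of 2.5 listed regions against 6. Another 23 Krtap genes held listed regions but no gain, and 12 held no listed region. Any listed region was present for 44 Krtap genes, and for 88.6% of all protein-coding genes. Counted by region, 37 of 145 (25.5%) were gained, against 22.9% of all listed regions, so that the share of regions was near that of the genome. In all, 87 of the 145 regions were higher in the DKO by any amount, against 48.2% of all listed regions. Of these 87, 45 had an extreme statistic in the authors' table with the sign opposite to that of the gained regions.

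The gained Krtap regions started from intermediate levels and ended high. Their median level was 46.9% in the WT, with an interquartile range of 34.9 to 54.3. The DKO median was 80.1% (73.2 to 85.1). Over all gained regions of the genome the medians were 45.6% and 76.3%. The median gain was 32.7 points at Krtap genes and 28.4 points over all gained regions. The 108 other Krtap regions had median levels of 81.8% (WT) and 81.6% (DKO), so they lay high in both genotypes. Among Krtap regions at 20% to 40% in the WT, 12 of 13 were gained (92.3%, against 84.99% of all listed regions at that level). At 40% to 60% in the WT, 22 of 27 were gained (81.5%, against 76.0%).

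**Figure D1:**
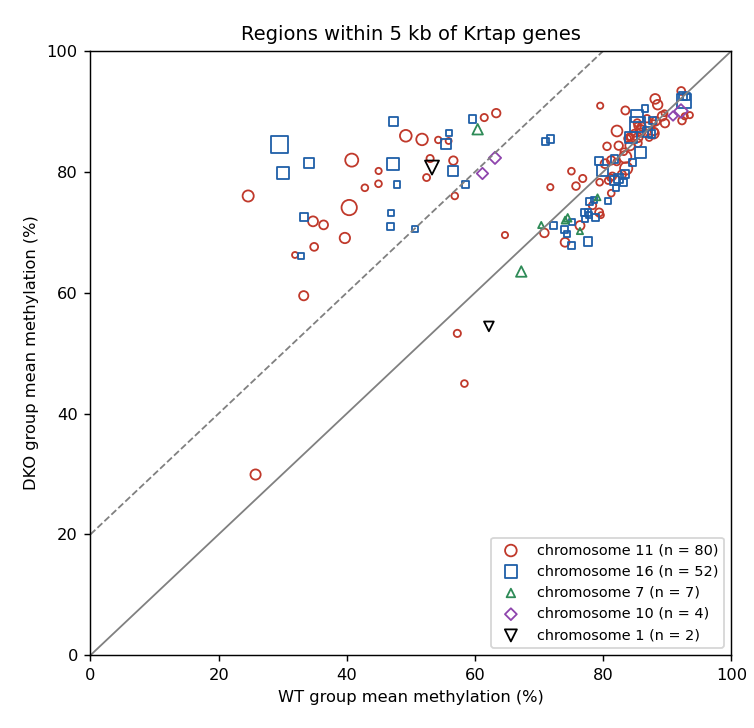
Group mean methylation in the DKO (vertical axis, percent) against the WT (horizontal axis, percent) for the 145 regions within 5 kb of Krtap genes, with 1 symbol per region, sized by its number of cytosine positions. The solid line marks equal levels and the dashed line a gain of 20 points. The 37 gained regions lie on or above the dashed line at WT levels from 24.6% to 63.3%, and the other 108 include 63 at 80% or more in the WT.

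The 2 largest gains lay over the genes themselves. The region at chr16:89570053-89571752 spans the whole of Krtap11-1, a high-sulfur protein gene, and its start. Its level in the authors' deposited table was 29.4% (WT) and 84.5% (DKO) over 77 cytosine positions, a gain of 55.1 points with a spread of 4.11. On chromosome 11 the largest gain covered the start and part of the body of Krtap4-7, an ultra-high-sulfur gene, at chr11:99643787-99645007. The authors' deposited table gives 24.6% (WT) and 76.0% (DKO) over 28 positions, a gain of 51.4 points with a spread of 3.54. Both are low among Krtap regions in the WT, and both are above 75% in the DKO.

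Sequences of Krtap promoters that overlap a listed region are shown with their CpG sites marked. A level is the mean over all positions of a region, which can reach beyond the promoter or cover only part of it. RefSeq promoter windows (GRCm38.p6, 250 bases before to 50 after the start) were found for 51 of the 56 genes. A listed region overlapped 10 of these windows, and a gained region overlapped 6, those of Krtap4-1, Krtap4-7, Krtap29-1, Krtap19-4, Krtap8-1 and Krtap11-1. That is 6 of 51, beside 3.95% of all 32851 promoter windows in the RefSeq table. The 250 bases upstream of the start are given for these 6 genes, and for Krtap26-1 and Krtap19-1, whose promoters overlapped regions without a gain. All are read from the minus strand, 5′ to 3′, and capitals mark CpG sites.
Krtap4-1: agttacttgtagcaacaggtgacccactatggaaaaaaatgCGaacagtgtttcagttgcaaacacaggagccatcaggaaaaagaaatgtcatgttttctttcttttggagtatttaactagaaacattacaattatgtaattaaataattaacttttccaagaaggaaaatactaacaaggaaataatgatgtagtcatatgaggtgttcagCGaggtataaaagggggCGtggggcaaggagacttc
Krtap4-7: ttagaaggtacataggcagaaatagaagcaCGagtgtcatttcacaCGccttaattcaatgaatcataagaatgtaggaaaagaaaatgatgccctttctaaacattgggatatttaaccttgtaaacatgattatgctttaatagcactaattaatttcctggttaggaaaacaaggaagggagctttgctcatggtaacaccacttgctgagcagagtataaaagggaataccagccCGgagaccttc
Krtap29-1: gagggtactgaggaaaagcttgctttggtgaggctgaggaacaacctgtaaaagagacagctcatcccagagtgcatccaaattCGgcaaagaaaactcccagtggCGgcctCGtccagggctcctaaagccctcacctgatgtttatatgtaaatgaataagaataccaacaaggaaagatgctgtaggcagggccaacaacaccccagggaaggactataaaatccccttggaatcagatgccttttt
Krtap19-4: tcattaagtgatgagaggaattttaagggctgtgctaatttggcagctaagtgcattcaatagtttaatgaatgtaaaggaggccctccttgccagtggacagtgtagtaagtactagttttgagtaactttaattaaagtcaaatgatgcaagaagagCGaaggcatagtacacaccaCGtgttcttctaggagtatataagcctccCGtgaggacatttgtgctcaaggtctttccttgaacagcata
Krtap8-1: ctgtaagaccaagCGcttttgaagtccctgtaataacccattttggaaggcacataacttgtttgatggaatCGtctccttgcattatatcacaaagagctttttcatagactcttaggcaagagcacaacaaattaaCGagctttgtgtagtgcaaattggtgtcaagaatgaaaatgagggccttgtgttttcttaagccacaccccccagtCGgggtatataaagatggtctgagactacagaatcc
Krtap11-1: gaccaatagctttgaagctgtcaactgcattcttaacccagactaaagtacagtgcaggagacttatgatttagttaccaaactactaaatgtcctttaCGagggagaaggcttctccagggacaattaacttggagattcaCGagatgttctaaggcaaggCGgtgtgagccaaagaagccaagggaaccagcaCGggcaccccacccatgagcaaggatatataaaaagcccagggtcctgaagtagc
Krtap26-1: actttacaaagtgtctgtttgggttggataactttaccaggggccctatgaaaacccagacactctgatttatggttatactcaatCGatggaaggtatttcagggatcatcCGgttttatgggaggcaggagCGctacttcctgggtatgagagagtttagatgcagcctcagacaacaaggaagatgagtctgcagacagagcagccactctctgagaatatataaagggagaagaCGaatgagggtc
Krtap19-1: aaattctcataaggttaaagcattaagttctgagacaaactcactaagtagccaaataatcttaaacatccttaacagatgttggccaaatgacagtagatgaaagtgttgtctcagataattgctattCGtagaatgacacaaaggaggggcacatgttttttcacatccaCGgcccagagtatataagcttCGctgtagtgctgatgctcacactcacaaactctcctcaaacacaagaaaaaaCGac

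The printed windows are chr11:99628240-99628489 (Krtap4-1), chr11:99644090-99644339 (Krtap4-7), chr11:99979101-99979350 (Krtap29-1) and chr16:88885090-88885339 (Krtap19-4). The others are chr16:89487953-89488202 (Krtap8-1), chr16:89571184-89571433 (Krtap11-1), chr16:88647797-88648046 (Krtap26-1) and chr16:88869411-88869660 (Krtap19-1). Each of the 6 promoters in a gained region held 3 or 4 CpG sites in its 300 bases, beside a median of 2 over the 51 Krtap promoters and 7 over all promoter windows. In Krtap4-1, Krtap4-7, Krtap19-4 and Krtap11-1 all CpG sites of the window lay inside the gained region. In Krtap29-1 it was 3 of 4 sites, and in Krtap8-1 it was 1 of 4, as the region there ends within the window. The sequence TATAAA, the core of a TATA box, began 20 to 40 bases upstream of the start on the gene's strand in 31 of 51 Krtap promoters (60.8%), against 1.99% of all promoter windows. The motif was in this place in 5 of the 6 promoters in a gained region, with Krtap19-4 as the exception. On either strand and anywhere in the 300 bases, it was in 42 of 51 Krtap promoters and 13.6% of all.

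Levels of the regions over these 6 promoters were intermediate in the WT and high in the DKO. Krtap4-1 went from 36.4% (WT) to 71.2% (DKO), by 34.8 points with a spread of 3.56 in the authors' deposited table. Krtap29-1 went from 40.4% (WT) to 74.1% (DKO) by the authors' deposited table, by 33.7 points with a spread of 3.22. Krtap8-1, a high-glycine-tyrosine gene, went from 33.3% to 72.5% (authors' deposited table), by 39.2 points with a spread of 4.85. The region over the promoter of Krtap19-4, a gene of the same protein class, differed least, from 56.6% to 80.1% in the authors' deposited table (23.5 points, spread 3.67). Of the 45 other Krtap promoters, 41 overlapped no listed region and so have no level here, and 3 of the remaining 4 overlapped a region that was high in the WT. In the authors' deposited table Krtap26-1 was at 85.4% and 87.8%, Krtap19-1 at 85.9% and 83.2%, and Krtap6-2 at 83.4% and 79.6%. The region of Krtap6-2 reaches only 18 of the 300 bases of its window. The fourth was Krtap10-4, for which the authors' deposited table has 61.2% (WT) and 79.7% (DKO), 18.6 points apart with a spread of 3.41. All 4 CpG sites printed for Krtap26-1 lay in its region that was highly methylated in both genotypes, while a region downstream of this gene gained 49.8 points.

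On chromosome 11, gains within 5 kb of a Krtap gene lay at both ends of the cluster and not near the 8 genes between them. The stretches described here were bounded after the gains were seen, so their counts of gains are descriptions. The cluster spans 443.863 kb from Krtap3-3 to Krtap17-1, and 13 of its 23 genes held a gained region. The first 12 genes in genome order, Krtap3-3 to Krtap4-6, lie within 115.8 kb, and 10 of them held a gain. The exceptions were Krtap3-2 and Krtap3-1, whose highest differences were 2.09 and -4.79 points. The next 8 genes, Krtap4-8 to Krtap9-5, held 19 listed regions and no gain. The last 3 genes, Krtap29-1, Krtap16-1 and Krtap17-1, each held a gain. With 10 kb on each side, Krtap4-9 and Krtap4-16 of the middle 8 held a gain too.

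**Figure D2:**
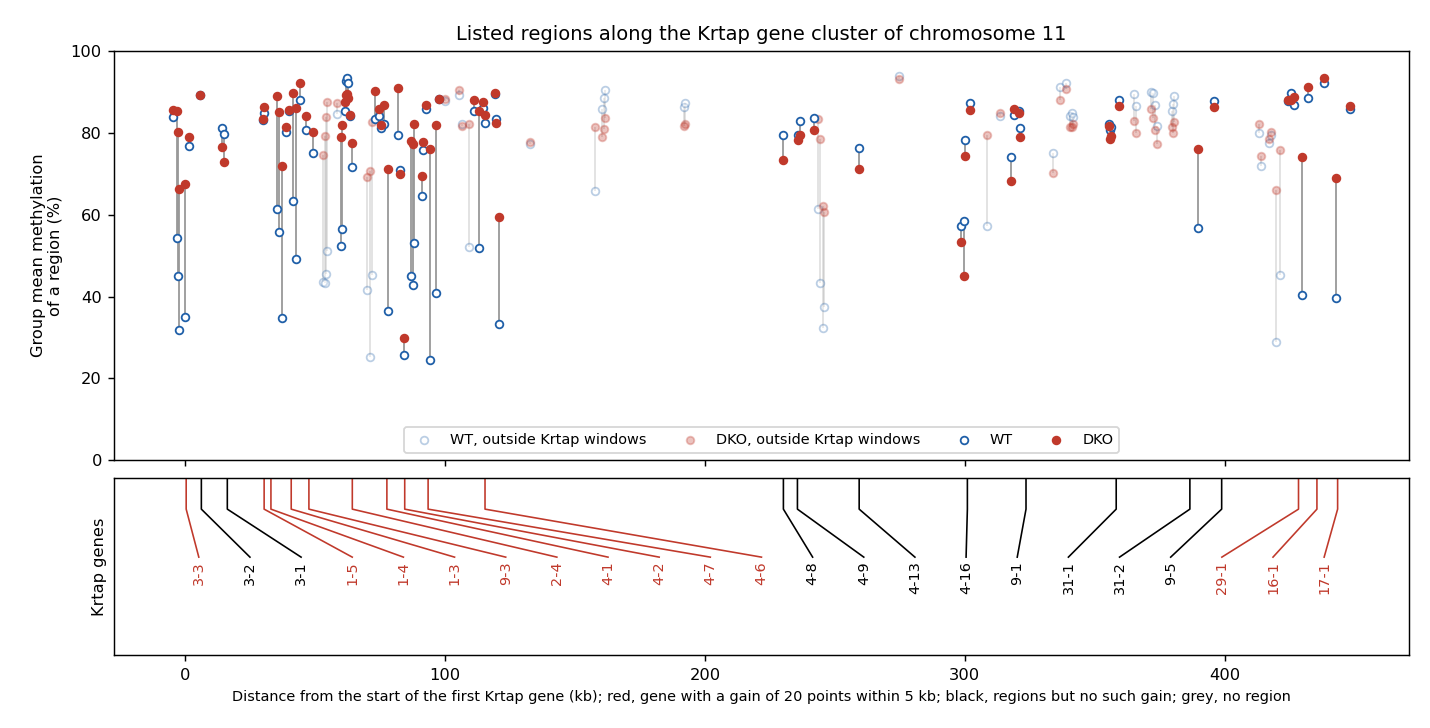
Levels of listed regions along the chromosome 11 cluster (upper panel, percent, against the distance from the start of the first Krtap gene in kb), with open circles for the WT, filled circles for the DKO and a line joining the same region. Pale symbols are regions over 5 kb from any Krtap gene, and the lower panel names the genes. Long lines sit near the first 12 and the last 3 genes, and near the 8 genes between them the longest lines are those of 19.2 points by Krtap31-2 and -13.4 points by Krtap4-16.

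At the start of this cluster, the Krtap3 and Krtap1 genes of the high-sulfur class differed among themselves. Krtap3-3 held 4 gained regions, all downstream of its start and of 9 positions or fewer, with gains from 31.01 to 35.2 points. Its nearest one, 69 bp beyond the gene, went from 34.9% (WT) to 67.6% (DKO) by the authors' deposited table, by 32.7 points with a spread of 3.97. The window of Krtap3-3 also reaches towards Krt40, a hair keratin, and 3 of its gains lie within 5 kb of that gene too. Krtap1-3 held the most gained regions of the cluster, 5, covering 23.8% of its window. The largest of these, at chr11:99587098-99587909 between Krtap1-4 and Krtap1-3, went from 34.7% (WT) to 71.8% (DKO) by the authors' deposited table, over 20 positions, by 37.1 points with a spread of 3.28. Krtap1-5 and Krtap1-4 share their gains with Krtap1-3. A region between Krtap1-3 and Krtap9-3 is the only gain of Krtap9-3 and went from 49.2% (WT) to 86.0% (DKO) by the authors' deposited table, over 32 positions, by 36.8 points with a spread of 3.33. Krtap2-4 held 2 gains of 25.2 and 26.6 points, both over 3 kb outside the gene.

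The Krtap4 family, of the ultra-high-sulfur class, split by position. Its members Krtap4-1, Krtap4-2, Krtap4-7 and Krtap4-6 in the first stretch held gains, and Krtap4-8, Krtap4-9, Krtap4-13 and Krtap4-16 in the middle stretch did not. Krtap4-7 held a gain over its start, 1 shared with Krtap4-2, and another upstream at chr11:99646240-99647017 that went from 40.8% (WT) to 81.9% (DKO) by the authors' deposited table, over 42 positions, by 41.2 points with a spread of 3.44. Krtap4-6 held 2 gains, of 33.6 points 1263 bp from the gene and of 26.2 points 4710 bp from it. Krtap4-2 differed from its neighbours. Over the gene itself, at chr11:99633964-99634727, the authors' deposited table has 25.8% (WT) and 29.9% (DKO) over 22 positions, 4.14 points apart with a spread of 3.21. This was the only Krtap region below 40% in the WT that was not gained. Its extreme statistic was 7.47, with the sign opposite to that of the gained regions. Upstream of the same gene, 3 small regions of 4 to 6 positions gained 29.2 to 34.5 points, the nearest of them 1990 bp from the gene.

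The middle stretch held small differences, mostly in the other direction. Of its 19 regions, 17 were lower in the DKO, with a median of -2.17 points (interquartile range -3.95 to -1.25). Most of the 17 differed by less than their spread, except for a region each at Krtap4-13, Krtap4-16 and Krtap9-1. Of all 145 Krtap regions, 72 differed by less than their spread in either direction. Over all listed regions 51.8% were lower, and 67.2% of those without a gain, which is the nearer comparison, since the stretch was chosen to hold no gain. The statistics that listed regions can have are not symmetric around 0, since none lies between -4.02 and 1.53, and what this does to the count of small differences was not tested. Over Krtap4-8 the authors' deposited table has 79.4% (WT) and 73.3% (DKO), and the difference of -6.09 points is within its spread of 6.66. Over Krtap4-13 it differed by -5.28 points with a spread of 3.96, from 76.4% to 71.1% (authors' deposited table). The largest loss at any Krtap gene lay 898 bp outside Krtap4-16, at chr11:99849609-99849757. It went from 58.3% to 45.0% (authors' deposited table), over 4 positions (-13.4 points, spread 4.31). No other Krtap gene held a loss of at least 10 points, so this was 1 gene of 56, against 8.5% of all protein-coding genes. Near Krtap9-1 the 4 regions differed by -5.72 to 1.51 points, near Krtap31-1 by -2.23 to -0.475, and the region of Krtap9-5 by -1.47. The highest difference of the stretch was 19.2 points, from 56.8% to 76.0% in the authors' deposited table, at 4 positions near Krtap31-2.

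Gains were present in the middle stretch, but away from the named Krtap genes. Of 22 listed regions in it that lay over 5 kb from every Krtap gene, 5 were gained. This share of 22.7% was near the 22.9% of all listed regions. Of these 5 gained regions, a run of 4 lay between Gm11596 and Gm11569, protein-coding genes with provisional names, and the other overlapped Gm11568. Krtap genes were taken by symbol, and whether these Gm genes encode keratin-associated proteins was not checked by protein sequence. The largest of them, at chr11:99794164-99794909, went from 43.3% (WT) to 78.5% (DKO) by the authors' deposited table, over 14 positions, by 35.2 points with a spread of 3.26. The 104 kb between the windows of Krtap4-6 and Krtap4-8 held 7 listed regions and no gain.

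At the far end of the cluster, a wide gained region lay between Krtap29-1 and Krtap16-1, at chr11:99979237-99980933. It begins 137 bp from Krtap29-1, on the upstream side, and held 62 positions. Krtap17-1, an ultra-high-sulfur gene, held a gain over its body from 39.7% to 69.05% in the authors' deposited table (23 positions, 29.4 points, spread 3.77). The neighbouring regions of these 3 genes were high in both genotypes, and the median difference over the 8 regions of this stretch was 1.58 points.

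On chromosome 16, gains within 5 kb of a Krtap gene lay mostly near the genes at the ends of the cluster, a pattern that depended on the 5 kb. The cluster spans 960.475 kb from Krtap24-1 to Krtap11-1, and 6 of its 24 genes held a gained region. Both genes at its start, Krtap24-1 and Krtap26-1, and all 3 at its end, Krtap8-1, Krtap7-1 and Krtap11-1, did so. Of the 19 genes between them, only Krtap19-4 held a gain, 10 had listed regions without one, and 8 had no listed region. The 8 were Krtap27-1, Krtap13-1, Krtap19-3, Krtap19-9b, Krtap22-2, Krtap6-1, Krtap6-3 and Krtap20-2. With 10 kb on each side, 7 of the 19 middle genes held a gain and made up most of the 12 genes with one, namely Krtap27-1, Krtap19-1, Krtap19-3, Krtap19-4, Krtap19-5, Krtap21-1 and Krtap6-2. Of all 52 gained regions listed across the cluster and 5 kb beyond its ends, 23 lay in the middle stretch.

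**Figure D3:**
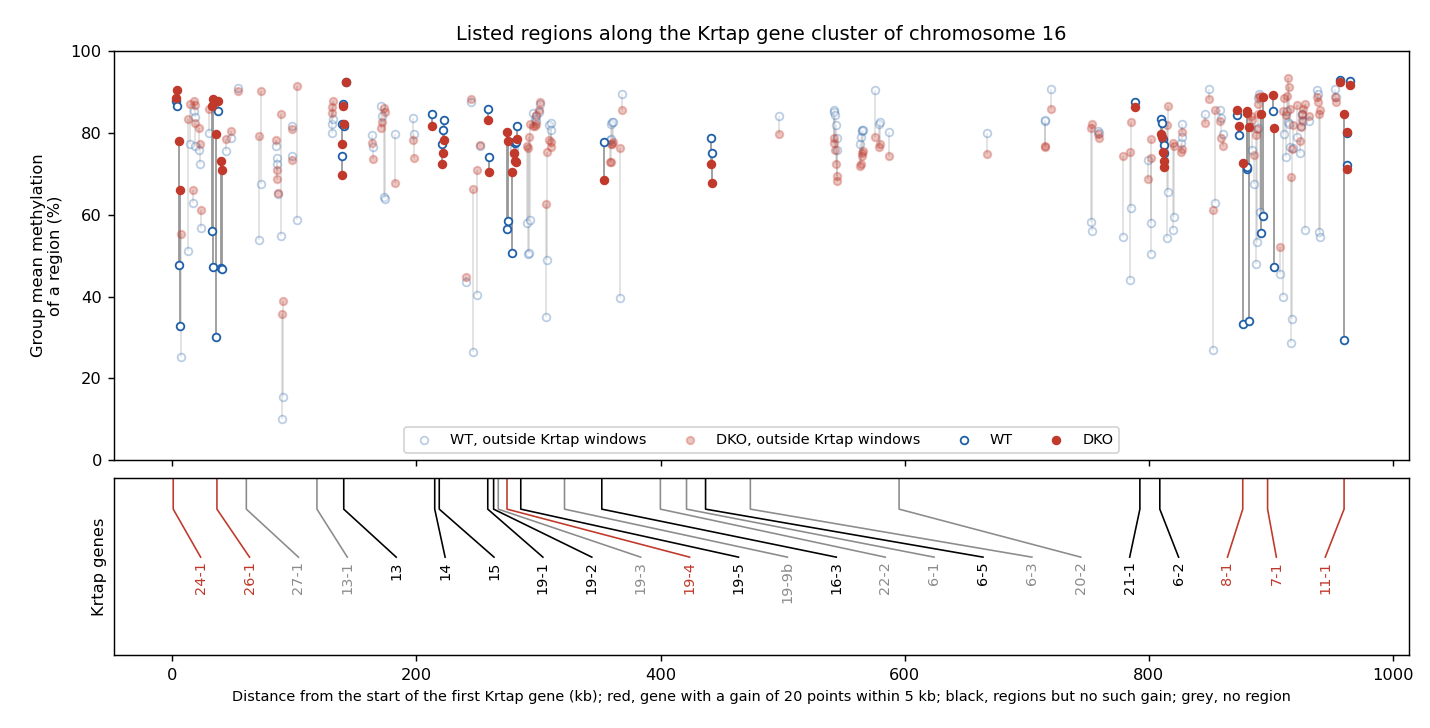
Levels of listed regions along the chromosome 16 cluster (upper panel, percent, against the distance from the start of the first Krtap gene in kb), drawn as for chromosome 11. Genes with a gain within 5 kb are named in red in the lower panel, those with regions but no gain in black and those without a region in grey. The red genes are Krtap24-1 and Krtap26-1 on the left, Krtap19-4, and Krtap8-1, Krtap7-1 and Krtap11-1 on the right.

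Krtap26-1, a high-sulfur gene, held 5 gains around a promoter that was methylated in both genotypes. The widest lay 13 bp beyond the gene, at chr16:88645744-88646811, and went from 30.05% (WT) to 79.8% (DKO) by the authors' deposited table, over 33 positions, by 49.8 points with a spread of 3.40. A second region downstream went from 47.2% (WT) to 88.4% (DKO) by the authors' deposited table, over 16 positions, by 41.1 points with a spread of 3.45. Upstream of the start, 2 regions of 4 positions each gained 26.3 and 24.2 points. Krtap24-1 held gains of 30.1 and 33.1 points, but these rested on 2 adjacent positions and 1 position, over 4 kb from the gene. At the other end, Krtap8-1 held a gain over its start and a wider one 4729 bp away, from 34.1% to 81.5% in the authors' deposited table (20 positions, 47.4 points, spread 4.66). Krtap7-1, also of the high-glycine-tyrosine class, held 3 gains of 29.1 to 34.1 points, all over 3.5 kb outside the gene.

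In the middle of the chromosome 16 cluster, 22 of 27 regions were lower in the DKO, with a median of -3.53 points and quartiles of -4.82 and -1.94. Among its 26 regions without a gain, 84.6% were lower, against 67.2% of all listed regions without a gain. This stretch too was bounded after the gains were seen, and the difference in shares was not tested. Most of its 22 lower regions differed by less than their spread. The Krtap6 genes showed 7 regions in all, near Krtap6-5 and Krtap6-2, and all 7 were lower in the DKO, with differences from -7.18 to -3.27 points. All those near Krtap6-2 differed by less than their spread, and those near Krtap6-5 by more. Near Krtap13 the 5 regions differed by -4.72 to 0.351 points and near Krtap15 the 3 regions by -5.61 to -4.91, and Krtap14 and Krtap21-1 held 1 region each, at -3.04 and -1.25. Krtap16-3 held the largest loss within 5 kb of a Krtap gene on this chromosome, from 77.6% to 68.5% in the authors' deposited table (-9.18 points, spread 3.81). Within 5 kb, Krtap19-4 stood apart from the other Krtap19 genes that held listed regions. In addition to its promoter, 2 small upstream regions were higher by 19.4 and 19.9 points, and no other Krtap19 gene held a region higher in the DKO. The regions of Krtap19-1, Krtap19-2 and Krtap19-5 differed by -4.94 to -2.64 points. Krtap19-1 and Krtap19-2 share the same regions, and Krtap19-3 and Krtap19-9b held none. Just past the 5 kb, a region 5438 bp from Krtap19-5 gained 25.7 points. As on chromosome 11, the middle of the cluster did hold gains away from the named Krtap genes, at 22 of 82 regions (26.8%, against 22.9% of all listed regions). They lay 5438 to 39403 bp from the nearest Krtap gene. The largest of these lay 11167 bp from Krtap19-1, at chr16:88857102-88857751, and went from 26.5% (WT) to 66.2% (DKO) by the authors' deposited table, over 20 positions, by 39.7 points with a spread of 4.23.

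On chromosome 7, the 5 Krtap5 genes, of the ultra-high-sulfur class, were nearly without gains. Krtap5-4 held the only one, 843 bp outside the gene at chr7:142305346-142306101, from 60.4% to 87.0% in the authors' deposited table (24 positions, 26.6 points, spread 3.39). Its other 5 regions differed by -6.17 to 0.865 points. Krtap5-2 held 1 region, with 67.2% (WT) and 63.5% (DKO) by the authors' deposited table, and Krtap5-3, Krtap5-5 and Krtap5-1 held none. Between the Krtap5 windows, none of 21 listed regions was gained, against 22.9% of all listed regions. The median levels of these 21 were 64.2% (WT) and 58.1% (DKO).

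The 4 genes on chromosomes 1 and 10 held 1 gain. Krtap28-13 on chromosome 1 held a gain 4763 bp away, from 53.3% to 80.7% in the authors' deposited table (50 positions, 27.4 points, spread 3.54). On chromosome 10, Krtap10-10 and Krtap10-4 held differences of 19.2 and 18.6 points, and Krtap12-1 held no listed region. Just under 20 points lay the 2 upstream regions of Krtap19-4 and the region of Krtap10-10. Just over it lay the promoter region of Krtap19-4 (23.5 points), an upstream region of Krtap26-1 (24.2) and a region near Krtap2-4 (25.2).

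By protein class, gains were present in each. A gained region lay near 8 of 15 high-sulfur genes, 7 of 20 ultra-high-sulfur genes and 3 of 15 high-glycine-tyrosine genes, all below the 64.4% of all protein-coding genes in their longer windows. The 3 were Krtap7-1, Krtap8-1 and Krtap19-4. The ultra-high-sulfur count here includes the Krtap10 and Krtap12 genes, which held no gain and are also classed as high-sulfur, so both sulfur counts depend on that choice. The remaining 6 genes, of the subfamilies 16, 28, 29 and 31, were not assigned a class, and 3 of them held a gain. Class and chromosome overlap, since the high-glycine-tyrosine genes all lie on chromosome 16 and all Krtap4 genes on chromosome 11. Within a class the genes differed by position, as the Krtap4 genes did. Krtap7-1 and Krtap8-1 likewise differed from 12 of the 13 high-glycine-tyrosine genes in the middle stretch. Of those 12, 6 had no listed region and so no level. Both contrasts depended on the 5 kb. With 10 kb on each side, Krtap4-9, Krtap4-16, Krtap19-1, Krtap19-3, Krtap19-5, Krtap21-1 and Krtap6-2 held a gain too. Families with gains at every member were those of Krtap1 (3 genes) and single genes such as Krtap2-4 and Krtap11-1. The families of Krtap6 (4 genes), Krtap10 (2), Krtap13 (2) and Krtap31 (2) held none within 5 kb. Among them, Krtap6-1, Krtap6-3 and Krtap13-1 had no listed region and so no level. Krtap10-4 (18.6 points, spread 3.41), Krtap10-10 (19.2, spread 3.34) and Krtap31-2 (19.2, spread 3.47) fell short of 20 points by less than their spread.

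**Figure D4:**
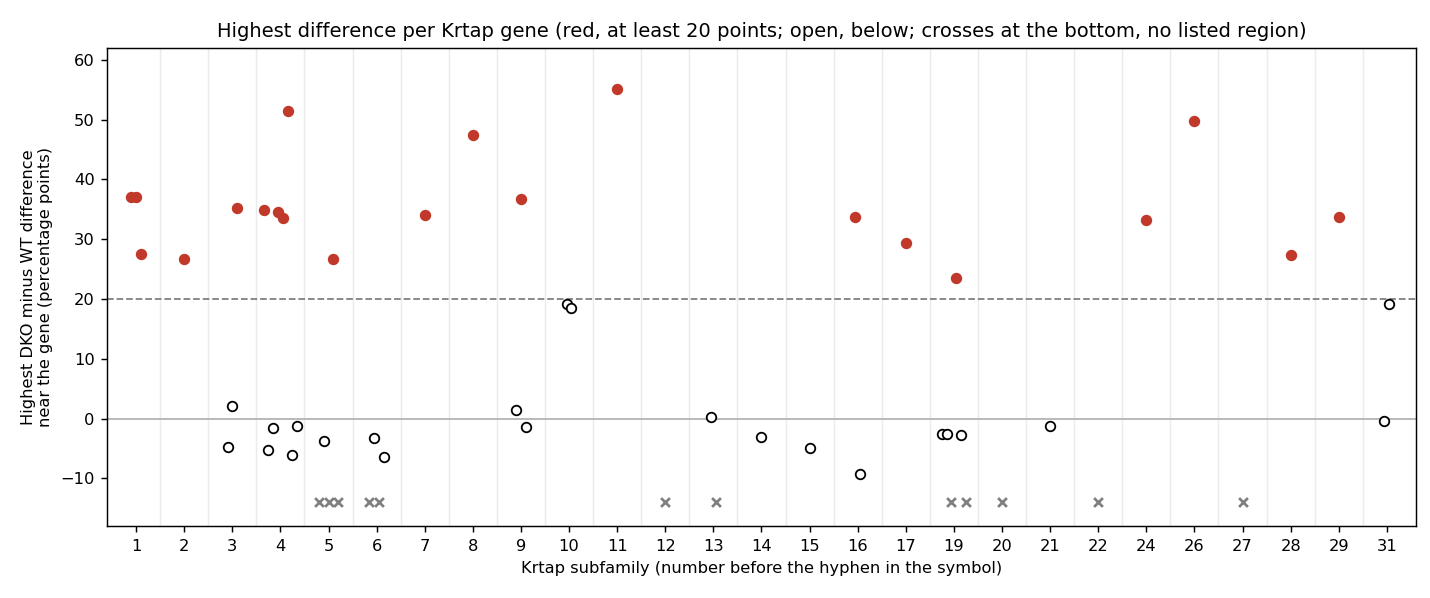
Highest DKO minus WT difference (percentage points) among the regions of each Krtap gene, by subfamily, with 1 symbol per gene. Filled red symbols mark genes with a gain of at least 20 points (dashed line), open symbols lower values, and crosses genes with no listed region. Krtap11-1 is highest at 55.1 points, and all Krtap6 genes lie below 0 or have no region.

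Genes with a gain had the highest median density of measured cytosine positions, though the ranges overlapped. The table gives a running index of the positions used by the authors, which counts those between listed regions as well. Density was taken between the nearest listed regions outside each gene's window, not over the window itself. These spans ran from 11.1 kb (Krtap19-5) to 128 kb (Krtap6-5), and neighbouring genes can share positions. Around the 21 genes with a gain the median was 16.3 positions per kb (range 10.8 to 27.9), against 11.5 (6.18 to 19.3) for the 23 genes with regions but no gain and 9.45 (7.05 to 16.3) for the 12 without a region. Over the nuclear chromosomes it was 13.8, which includes low values for X (7.11) and Y (0.372). It was 17.7 over chromosome 11, above the median of the genes with a gain, and 13.8 over chromosome 16. The 12 genes without a region did have measured positions around them. The listed regions on either side of them were 11.5 to 79.9 kb apart, with 125 to 676 positions between. Krtap6-1 and Krtap22-2 lie together in 71.6 kb that held 676 positions and no listed region. The median number of promoter CpG sites was 3 in 19 genes with a gain and 1 in 32 without. In the middle stretch of chromosome 11, 5 of 7 promoters had no CpG site in 300 bases. The part of position density in which genes show a gain was not tested.

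Gains lay as often upstream as downstream of the nearest start. Of the 37 gained regions, 7 overlapped a Krtap gene body and 6 a Krtap promoter window. By body alone 7 of 56 genes (Krtap1-3, Krtap4-1, Krtap4-7, Krtap17-1, Krtap19-4, Krtap8-1 and Krtap11-1) held a gain, against 52.1% of all protein-coding genes, whose bodies are longer (median 17146 bp against 833 bp). For the regions whose nearest gene has a known start, 13 lay upstream of it, 13 downstream and 5 across it.

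Other genes of the hair shaft were read in the same way, with no test of a difference from the Krtap genes or from the 64.4% of all protein-coding genes that held a gain. A gained region lay near 11 of 15 hair keratins measured here, the filament partners of the Krtap proteins. The largest was at Krt39, and Krt83, Krt86, Krt87 and Krt32 held none. Krt85, also on the list of 16 hair keratins, was not found among the genes. Among regulators of hair differentiation, 6 of 8 held a gain, and Hoxc13 and Foxq1 did not. In the authors' deposited table Lef1, the Wnt effector, reached 83.3% from 29.3%, and Foxn1, a factor needed for hair keratin expression, reached 69.6% from 22.5%. Hoxc13, a known activator of hair keratin genes, held 6 regions, the highest at 0.779 points and 1 at least 10 points lower in the DKO. Of the genes of cross-linking and matrix proteins, 7 of 8 held a gain, and Tchh, trichohyalin, held none (highest difference 19.5 points), while 3 of its 7 regions were at least 10 points lower. A gain also lay near 9 of 11 markers of other skin cells and 5 of 7 keratinocyte and hair matrix markers. The latter list shares Msx2, Hoxc13, Lef1 and Foxn1 with the regulators above, so the counts overlap. No measure of cell composition was made, and its part in these levels was not tested.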

How the data were processed

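Whole-genome bisulfite sequencing was done on 2 WT and 2 Tet2/Tet3 DKO libraries. Trim Galore, Bismark and the build GRCm38 (mm10) are named, per the submitters' processing notes. How regions were called and bounded, and what was done with reads that fit several near-identical Krtap genes, is not given in the sources used here. Per the file headers, each deposited region has a mean methylation level in each group as a fraction, multiplied here to percent, and a statistic, treated as a score. No extreme statistic lay between -4.02 and 1.53. All 37 gained Krtap regions and 5 others (18.6 to 19.9 points higher in the DKO) had a negative statistic, and the other 103 a positive one. The table as deposited holds neither p-values nor read counts, and means of groups only, so no planned test on reads was run and no filter by false discovery rate was possible.

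Genes came from RefSeq tables of GRCm38, whose 56 Krtap genes all matched by symbol, and gene clusters join neighbours within 500 kb. Members and lists were chosen with earlier results of these data known. Every gene with a gain is named. Single regions are described for the largest gain and loss of each cluster, the gene with the largest gain of a subfamily, regions over promoters and those around 20 points, and some others chosen after their values were seen. Protein classes were planned by protein composition, but protein sequences were not used, so subfamily numbers were assigned to classes from general knowledge. Overlap counts were tested on simulated data. Alternatives were other windows, minimum numbers of positions, other gains and weighted means. Scripts ran in Python 3.11.15 with pandas 2.3.3, numpy 2.4.6 and matplotlib 3.10.9.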

Additional observations from a re-analysis of the deposited data

How the results depend on the processing

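No paired analysis was possible because the table holds group means and no values per library, so leaving out a library was not possible either, and no filter by false discovery rate was run. Genes with a gain fell from 21 to 7 with the gene body only (chromosome 11, 4; chromosome 16, 3; chromosome 7, 0) and to 11 with 1 kb on each side (chromosome 11, 6). With 10 kb on each side, 12 genes held a gain on chromosome 16, 7 of them in the middle of the cluster against 1 at 5 kb, and 2 on chromosome 7. Gained regions numbered 37, against 7 (gene body), 11 (1 kb), 70 (10 kb), 20 (at least 10 positions) and 22 (30 points), and at 30 points 0 genes of chromosome 7 held one. The median difference of 0.984 points became 14.1 as a mean weighted by positions (chromosome 11, 1.62 and 12.99; chromosome 16, 0.172 and 16.3). It was 12.99 for chromosome 16 gene bodies. On chromosome 7 the median of -2.07 points became -6.17 with gene bodies and turned to 11.5 with at least 10 positions and 7.72 when weighted, over few regions. Medians were called moved where they shifted by more than the median spread of 3.54 points, and counts where they passed a fixed fold limit. Of the values recomputed, 19 moved, 2 reversed sign and 56 stayed within these limits. All 56 genes with a Krtap symbol of any type are protein-coding, so that alternative is the same set, and adding genes with a Krtap synonym, chosen after seeing the data, moved no value past them, although the chromosome 16 median went from 0.172 to -0.0929 points. Depth is unknown, so no interval could be given.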
